A study of Mus musculus with 12 samples.

Results

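Chemokine genes that airway and alveolar epithelium can express were followed in MLE12, an epithelial line of the mouse distal lung immortalized by SV40 large T antigen. The genes were Ccl2, Ccl5, Ccl7, Ccl20, Cxcl1, Cxcl2, Cxcl5, Cxcl10, Cxcl15 and Cx3cl1, and they were read from the probe sets whose platform annotation gave exactly 1 of these symbols. Each gene had 1 such probe set, so 10 of 41345 probe sets, or 10 of 22180 named genes, make up the group. The 12 arrays, 3 per group, came from cells given a pLKO.1 lentiviral shRNA against the long noncoding RNA NANCI, cells of the same set given a scrambled shRNA, cells given an shRNA against the RNA named LL34, and cells of that second set given a scrambled shRNA. All 4 groups were exposed to lentivirus and polybrene for 12 hours and then subcultured for 65 hours before collection, so no group was free of virus. The replicates are titled biological replicates, but separate infections are not stated, so a p-value here reflects only how the arrays of a group spread, which may be technical. MLE12 is 1 cell line in culture, and the protocols mention no leukocytes that a chemokine could attract.

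Chemokines are small secreted proteins that bind G-protein-coupled receptors and draw leukocytes along a gradient. CC chemokines act mainly on monocytes, lymphocytes and dendritic cells, while the CXC chemokines that bind Cxcr2 draw neutrophils. Lung epithelium makes several of them when NF-kB or interferon signalling is switched on, and it makes Cxcl15, also called lungkine, as a product typical of the mouse lung.

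Values are log2 signals, where a difference of 1 is a doubling, and changes are shRNA minus scrambled of the same set, each with its standard error (SE). A gene is called when its limma p-value, adjusted over all 41345 probe sets by Benjamini-Hochberg, is under 0.05. The median log2 signal of an array was 6.84 to 6.88 in the NANCI set but 6.54 to 6.61 for LL34, so the sets look as if they were normalized separately and levels were tested only within a set. Each array's mean correlation with its own group was 0.988 to 0.997, lowest for LL34 scrambled replicate 3. Sfta3-ps, the gene listed with the synonym Nanci, fell by 2.91 (SE 0.121, limma adjusted p = 1.72e-07) in the NANCI comparison. It also fell with the LL34 shRNA, by 0.67 (SE 0.121, limma adjusted p = 0.00284), and the LL34 RNA was not analysed here. Among 11 markers of lung epithelium, Krt8, Cdh1, Nkx2-1, Sftpb, Sftpc and Abca3 lay above the array median on 12 of 12 arrays, Epcam on 1 and Krt18 on 4. Sftpa1, Lamp3 and Slc34a2 lay below it on 12 of 12.

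After NANCI knockdown 5 of the 10 chemokine genes were called, Ccl2 and Cxcl1 higher and Ccl5, Cxcl15 and Cx3cl1 lower, beside 26.8% of all named genes. In cells given the LL34 shRNA 3 of 10 were called, Ccl2, Cxcl1 and Cxcl10, each lower, beside 20% of all named genes. Over all named genes 13.2% were called higher and 13.6% lower after NANCI knockdown, and 9.77% higher and 10.3% lower with the LL34 shRNA. The 3 of 10 with the LL34 shRNA is a share near that background. Ccl2 and Cxcl1 were called in both comparisons and in opposite directions, as were 5.52% of all named genes. The median change of the 10 genes was 0.035 after NANCI knockdown and −0.13 with the LL34 shRNA, and over all named genes it was 0.0042 and −0.0195. The groups did not overlap for 5 of 10 genes in the NANCI comparison (40.5% of named genes) and for 4 of 10 in the LL34 comparison (35.3%).

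**Figure D1:**
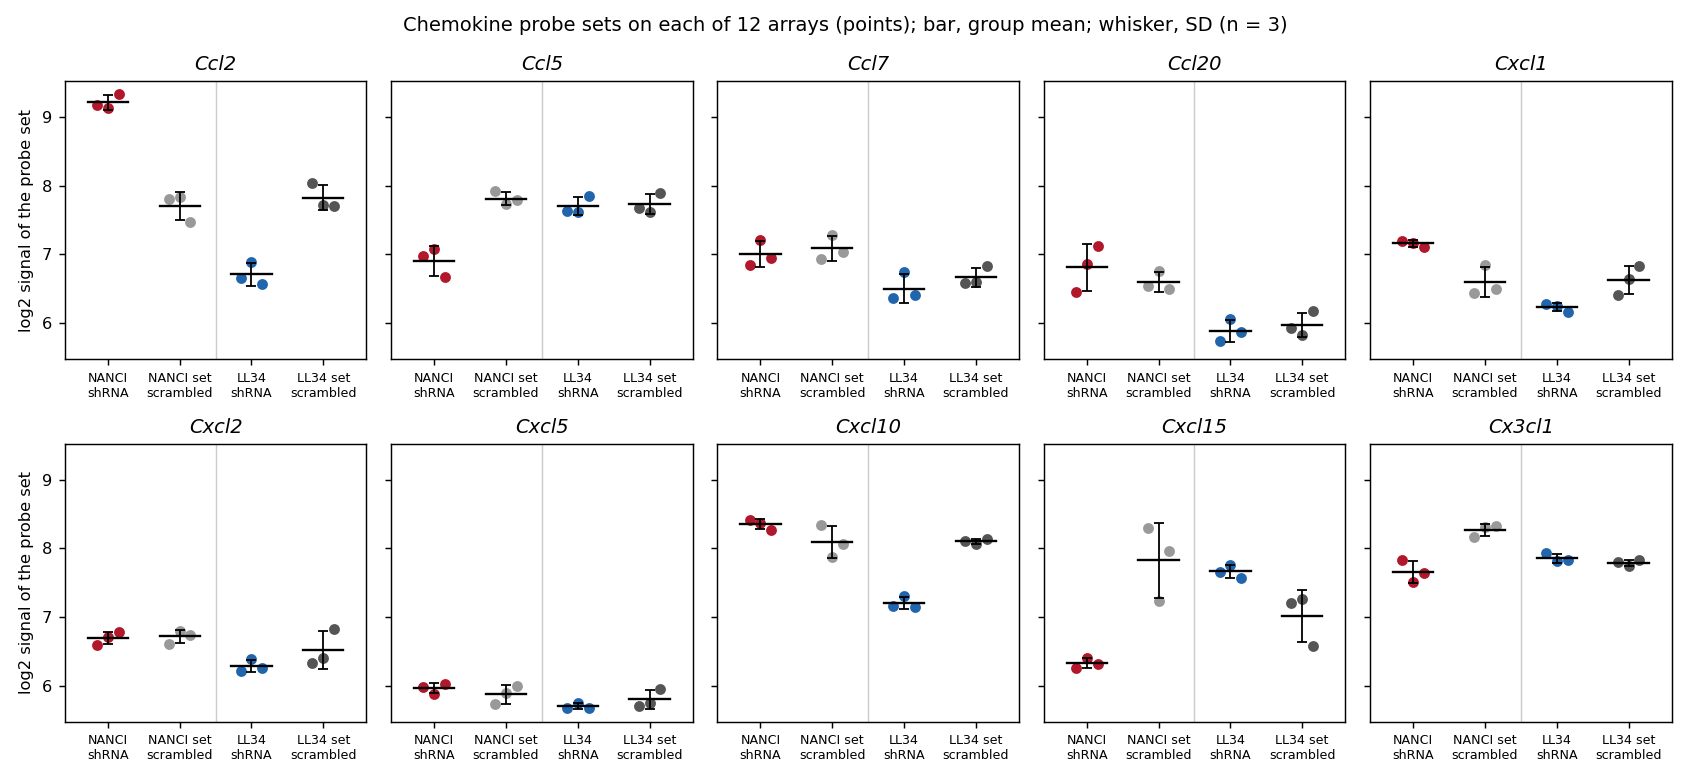
Log2 signal of each chemokine probe set (vertical axis) on the 12 arrays, with points for arrays, bars for group means and whiskers for SD (n = 3), grouped as NANCI shRNA, its scrambled shRNA, LL34 shRNA and its scrambled shRNA. Ccl2 sits near 9.21 in NANCI shRNA cells and near 6.71 in LL34 shRNA cells, with the scrambled groups between them at 7.71 and 7.82. Probe sets differ in brightness, so panels are to be read one at a time.

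Ccl2, the main attractant of monocytes through Ccr2, changed more than the other CC members in both comparisons. Its log2 signals were 9.17, 9.13 and 9.34 in NANCI shRNA cells, against 7.81, 7.83 and 7.47 in the scrambled cells of that set. All NANCI shRNA arrays were higher, and Ccl2 rose 2.85-fold (log2 change 1.51, SE 0.126, limma adjusted p = 9.83e-06). Signals in the LL34 set were 6.66, 6.89 and 6.57 in LL34 shRNA cells, against 8.04, 7.72 and 7.71 in scrambled cells. All LL34 shRNA arrays were lower, and Ccl2 fell to 46.2% of the scrambled level (log2 change −1.11, SE 0.126, limma adjusted p = 0.000155). LL34 shRNA replicate 3 lay just below its array median and may read background, so 46.2% need not be the RNA left. As this is bulk RNA, less RNA per cell and fewer cells that make Ccl2 cannot be told apart. The NANCI change exceeded the LL34 change by 2.62 (SE 0.177, limma adjusted p = 3.72e-06).

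Ccl7, which shares the receptor Ccr2 and is the next coding gene beside Ccl2 on chromosome 11, was not called. Its log2 signals spanned 6.85 to 7.21 in NANCI shRNA cells and 6.94 to 7.29 in their scrambled cells, and the groups overlapped. The change was −0.08 with a 95% interval of −0.38 to 0.21 after NANCI knockdown, and −0.16 with an interval of −0.46 to 0.13 with the LL34 shRNA. The LL34 set also overlapped, with 6.36 to 6.74 in LL34 shRNA cells and 6.58 to 6.82 in scrambled cells.

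Ccl5, also called RANTES, which attracts T cells and monocytes, fell after NANCI knockdown. Its log2 signals were 6.97, 7.08 and 6.66 in NANCI shRNA cells, against 7.92, 7.73 and 7.78 in scrambled cells. The groups did not overlap, and Ccl5 was at 53.5% of the scrambled level (log2 change −0.90, SE 0.116, limma adjusted p = 0.000198). NANCI shRNA replicate 3 lay below its array median. Ccl5 read 7.63, 7.62 and 7.85 in LL34 shRNA cells, against 7.68, 7.62 and 7.90 in scrambled cells. These groups overlapped and 1 value occurred in both of them, with a change of −0.03 and a 95% interval of −0.29 to 0.22. The changes differed between the comparisons by −0.87 (SE 0.165, limma adjusted p = 0.0031).

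Ccl20, the ligand of Ccr6 on dendritic cells and lymphocytes, lay below the array median on 11 of 12 arrays and was called in neither comparison. Its log2 signals spanned 6.45 to 7.12 in NANCI shRNA cells and 6.49 to 6.76 in their scrambled cells, so the spread within the NANCI shRNA group (SD 0.337) was wider than the change of 0.21. In the LL34 set they spanned 5.74 to 6.06 in LL34 shRNA cells and 5.82 to 6.17 in scrambled cells, with a change of −0.09. The groups overlapped in both sets.

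Cxcl1 (KC), Cxcl2 (MIP-2) and Cxcl5 (LIX) bind Cxcr2 and draw neutrophils. Cxcl1 and Cxcl2 are neighbours on chromosome 5 and both are known NF-kB targets in mouse cells. The 250 bases before their transcription starts are shown because both hold GGGAATTTCC, the letters that match the NF-kB consensus on the coding strand of Cxcl1. Of these genes Cxcl1 was called and Cxcl2 was not. Both were dim, as Cxcl1 lay below the array median on 7 of 12 arrays and Cxcl2 on 11 of 12. The stretch of Cxcl10, on the minus strand of the same chromosome, is added because its signal fell with that of Cxcl1 in LL34 shRNA cells. Each is given from 5′ to 3′ in the direction of the gene, from RefSeq on GRCm38.p6, with the matches to the NF-kB consensus on either strand in capitals and overlapping matches joined.
Cxcl1, chr5:90890995-90891244, plus strand: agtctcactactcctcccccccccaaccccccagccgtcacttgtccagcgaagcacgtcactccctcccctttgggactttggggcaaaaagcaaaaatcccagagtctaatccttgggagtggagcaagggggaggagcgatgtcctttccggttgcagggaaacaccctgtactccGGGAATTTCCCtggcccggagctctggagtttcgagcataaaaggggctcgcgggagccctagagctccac
Cxcl2, chr5:90903649-90903898, plus strand: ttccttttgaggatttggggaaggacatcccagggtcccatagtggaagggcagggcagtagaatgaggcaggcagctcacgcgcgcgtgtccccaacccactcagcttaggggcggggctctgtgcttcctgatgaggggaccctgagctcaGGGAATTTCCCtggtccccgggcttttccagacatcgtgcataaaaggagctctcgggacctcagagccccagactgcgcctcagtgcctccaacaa
Cxcl10, chr5:92348890-92349139, minus strand: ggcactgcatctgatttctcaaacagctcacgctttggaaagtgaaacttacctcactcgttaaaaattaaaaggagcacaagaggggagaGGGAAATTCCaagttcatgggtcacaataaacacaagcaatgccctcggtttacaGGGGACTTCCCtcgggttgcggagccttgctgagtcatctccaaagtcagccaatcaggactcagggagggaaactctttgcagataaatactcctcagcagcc
Those letters begin 71 bases before the start in Cxcl1 and 97 bases before it in Cxcl2. Cxcl10 has matches that begin 159, 104 and 103 bases before the start, and the matches at 104 and 103 overlap. No gene of the table overlaps the stretches of Cxcl1 and Cxcl2, while the Cxcl10 stretch lies within the bounds of Art3. Among 32851 such stretches, GGGAATTTCC was found on either strand in 0.0852% and the NF-kB consensus in 7.25%. Of 6 chemokine genes with a stretch in the table, Ccl20, Cxcl1, Cxcl2 and Cxcl10 held the consensus, and Cxcl15 and Cx3cl1 did not. TGANTCA, the AP-1 core, occurred in Cxcl10 and in 6.75% of stretches. TATAAA occurred in Cxcl15, 27 bases before the start, in Cx3cl1 and in 12.4% of stretches, and CTCAAG, the core read by Nkx2-1, in 0 of the 6 and in 13.3%. All were searched on both strands. These are matches of letters, and no binding was measured.

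Cxcl1 moved in opposite directions in the 2 sets. Its log2 signals were 7.20, 7.17 and 7.11 in NANCI shRNA cells, against 6.43, 6.84 and 6.50 in scrambled cells. All NANCI shRNA arrays were higher, and Cxcl1 rose 1.48-fold (log2 change 0.57, SE 0.117, limma adjusted p = 0.00494). Cxcl1 read 6.27, 6.25 and 6.16 in LL34 shRNA cells, against 6.42, 6.65 and 6.83 in scrambled cells. All LL34 shRNA arrays were lower, and the log2 change was −0.40 (SE 0.117, limma adjusted p = 0.0397). That call was narrow: it was lost in 11 of 20 alternatives, with adjusted p from 0.0508 to 0.131, among them leaving out any 1 array of either shRNA group, LL34 scrambled replicate 2 or 3, or NANCI scrambled replicate 3. The difference between the changes was 0.97 (SE 0.166, limma adjusted p = 0.0017).

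Cxcl2 and Cxcl5 were not called. Cxcl2 spanned 6.59 to 6.77 in NANCI shRNA cells and 6.61 to 6.80 in their scrambled cells, a change of −0.02 with a 95% interval of −0.29 to 0.24. With the LL34 shRNA it spanned 6.22 to 6.39, against 6.32 to 6.83 in scrambled cells, a change of −0.23 with an interval of −0.50 to 0.027. Both ranges overlap, and the highest scrambled value, 6.83, belongs to LL34 scrambled replicate 3. Cxcl5 lay below the array median on 12 of 12 arrays and measured 0.09 and −0.10, with intervals of −0.09 to 0.28 and −0.29 to 0.09.

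Cxcl10, also called IP-10, is induced by interferon and binds Cxcr3 on activated T cells and natural killer cells. In LL34 shRNA cells its log2 signals were 7.16, 7.30 and 7.15, against 8.10, 8.06 and 8.14 in scrambled cells. The groups were far apart for their spread (SD 0.0881 and 0.0382), and Cxcl10 fell to 53.7% of the scrambled level (log2 change −0.90, SE 0.103, limma adjusted p = 0.000171). In NANCI shRNA cells it read 8.42, 8.37 and 8.27, against 8.34, 7.87 and 8.07 in scrambled cells. These groups overlapped, and the change of 0.26 (SE 0.103) missed the threshold (limma adjusted p = 0.112). Without NANCI scrambled replicate 1 it measured 0.39 and was called (limma adjusted p = 0.0087). The changes differed by 1.16 (SE 0.145, limma adjusted p = 0.000212).

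Cxcl15, the lung-restricted neutrophil chemokine of the mouse, fell most of the 10 genes after NANCI knockdown. Its log2 signals were 6.26, 6.40 and 6.32 in NANCI shRNA cells, against 8.29, 7.23 and 7.95 in scrambled cells. The groups did not overlap although the scrambled arrays were widely spread (SD 0.543), and Cxcl15 was at 35.4% of the scrambled level (log2 change −1.50, SE 0.240, limma adjusted p = 0.000906). All NANCI shRNA signals of Cxcl15 lay below their array medians and may read background, so 35.4% need not be the RNA left. Leaving out single arrays gave changes from −1.79 to −1.26, each called. Nkx2-1, a lung transcription factor, fell by 1.00 in the same cells (SE 0.0745, limma adjusted p = 4.95e-06), to 50.1% of the scrambled level. With the LL34 shRNA Nkx2-1 also fell, by 0.27 (limma adjusted p = 0.0327), to 83.2%. The part of these falls in the Cxcl15 results was not tested.

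In the LL34 set Cxcl15 stood on the other side. It read 7.66, 7.76 and 7.57 in LL34 shRNA cells, against 7.20, 7.26 and 6.58 in scrambled cells. All LL34 shRNA arrays were higher, but the log2 change of 0.65 (SE 0.240) missed the threshold (limma adjusted p = 0.0998). It was called without NANCI scrambled replicate 2, an array of the other set that adds to the shared spread (limma adjusted p = 0.0238). Without LL34 scrambled replicate 3, which reads lowest, the change was 0.43. The changes of Cxcl15 differed by −2.14 (SE 0.339, limma adjusted p = 0.000985).

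Cx3cl1, or fractalkine, is a membrane-anchored chemokine on epithelium and endothelium that metalloproteinases release as a soluble ligand of Cx3cr1. Its log2 signals were 7.82, 7.51 and 7.64 in NANCI shRNA cells, against 8.17, 8.30 and 8.33 in scrambled cells. The groups did not overlap, and Cx3cl1 was at 65.4% of the scrambled level (log2 change −0.61, SE 0.0818, limma adjusted p = 0.000254). Cx3cl1 read 7.93, 7.81 and 7.83 in LL34 shRNA cells, against 7.80, 7.75 and 7.83 in scrambled cells. These groups overlapped, with a change of 0.07 and a 95% interval of −0.11 to 0.25. Against all 6 scrambled arrays as 1 control group the NANCI change was −0.37 and was not called (limma adjusted p = 0.11), since the scrambled groups of the sets stood at 8.27 and 7.79. The changes differed by −0.68 (SE 0.116, limma adjusted p = 0.00162).

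**Figure D2:**
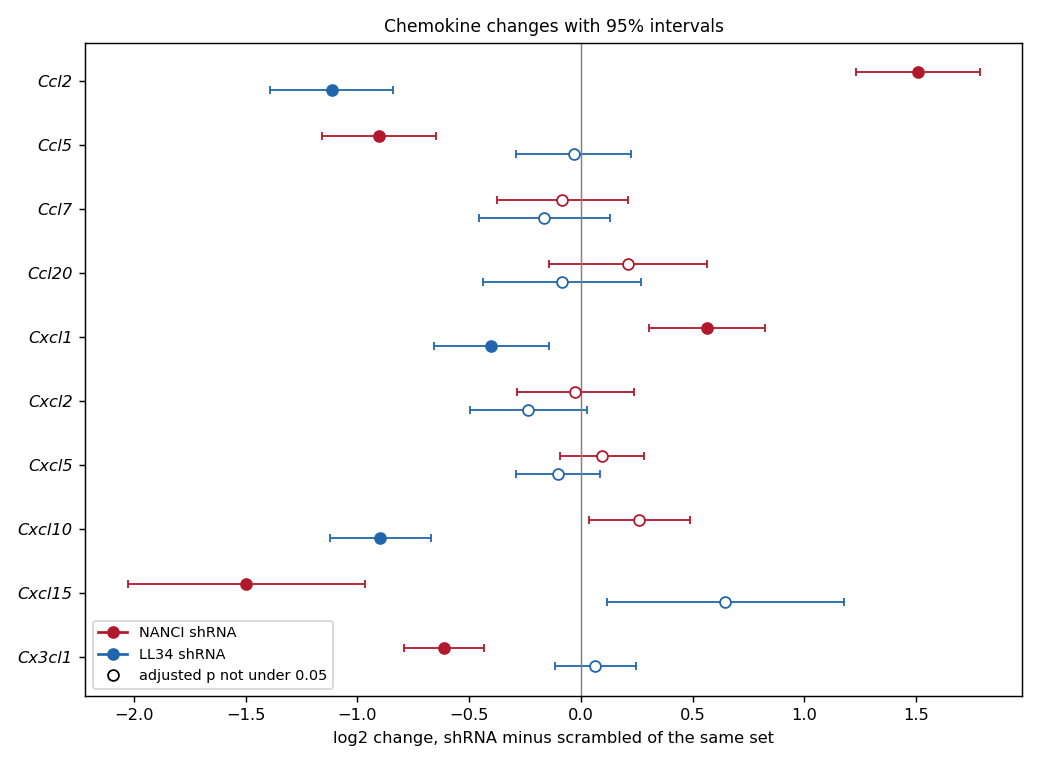
Log2 change of each chemokine gene, shRNA minus scrambled of the same set (horizontal axis), for NANCI (red) and LL34 (blue), with 95% intervals as bars and open points where the adjusted p is not under 0.05. Ccl2 stands at 1.51 and −1.11, and Cxcl15 at −1.50 and 0.65.

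The difference between the changes was called for 6 of 10 genes, beside 24.4% of all named genes. For Ccl2, Cxcl1 and Cxcl10 the NANCI change was the more positive one, and for Ccl5, Cxcl15 and Cx3cl1 it was the more negative one. Set across the 4 groups, Ccl2, Cxcl1 and Cxcl10 had the same order of mean levels, with NANCI shRNA cells highest, the scrambled groups next and overlapping each other, and LL34 shRNA cells lowest. That order also held after quantile normalization over all 12 arrays. Cxcl15 was highest in NANCI scrambled cells, whose values overlapped those of LL34 shRNA cells, then came LL34 scrambled cells and, apart from all others, NANCI shRNA cells. Levels across sets carry the separate normalization, and for Ccl5, Cxcl2, Cxcl5 and Cx3cl1 the order changed with quantile normalization.

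By the root mean square difference over 12 arrays, each array taken minus the mean scrambled level of its set, the genes nearest to Ccl2 among 19273 were Ctxn1 (0.116), Osgin1 (0.231) and Tnfaip3 (0.233). Ctxn1, a small membrane protein gene, changed by 1.57 after NANCI knockdown and by −1.13 with the LL34 shRNA. Osgin1, an oxidative stress response gene, changed by 1.32 and −0.96. Nearest to Cxcl15 were Atg10 (0.252), an enzyme of autophagosome formation, Rab6b (0.254), a Golgi GTPase, and Grb10 (0.258), an adaptor of the insulin receptor. They measured −1.41, −1.63 and −1.32 after NANCI knockdown. With the LL34 shRNA they measured 0.44, 0.48 and 0.46, where Rab6b was not called (limma adjusted p = 0.0763).

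Genes of the NF-kB pathway, whose dimers drive many chemokine promoters, were called in 1 direction per comparison, though not all were called. Of 14 measured subunits and regulators, 9 rose and 0 fell after NANCI knockdown (64.3%, beside 26.8% of all named genes), with a median of 0.26 beside 0.0042. In LL34 shRNA cells 10 fell and 0 rose (71.4%, beside 20%), with a median of −0.39 beside −0.0195. In both comparisons 7 of them were called, each higher after NANCI knockdown and lower with the LL34 shRNA, and the difference was called for 11. The estimate was above 0 for 12 of 14 after NANCI knockdown and below 0 for 13 of 14 with the LL34 shRNA. Over 21 alternatives chosen after these counts were seen, 7 to 9 rose and 0 fell in the NANCI comparison, and 7 to 11 fell and 0 rose in the LL34 comparison. The list was written with earlier results of these data known, so its counts are a description.

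Tnfaip3, or A20, a deubiquitinating enzyme that NF-kB induces and that restrains the pathway, read 9.04, 8.87 and 9.12 in NANCI shRNA cells, against 7.90, 7.69 and 7.62 in scrambled cells. It read 7.14, 6.91 and 7.10 in LL34 shRNA cells, against 8.12, 7.84 and 7.66 in scrambled cells. The groups were apart in both sets, with changes of 1.27 (SE 0.124, limma adjusted p = 2.84e-05) and −0.82 (SE 0.124, limma adjusted p = 0.000948). Nfkbia, the inhibitor that holds NF-kB in the cytoplasm, rose by 0.64 after NANCI knockdown. Ikbkg (NEMO), the regulatory subunit of the kinase complex, changed by 0.63 and −1.05, and Nfkb2, the precursor of p52, by 0.48 and −0.67. In LL34 shRNA cells the kinase gene Ikbke measured −0.84 and the transactivating subunit gene Rela −0.44.

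**Figure D3:**
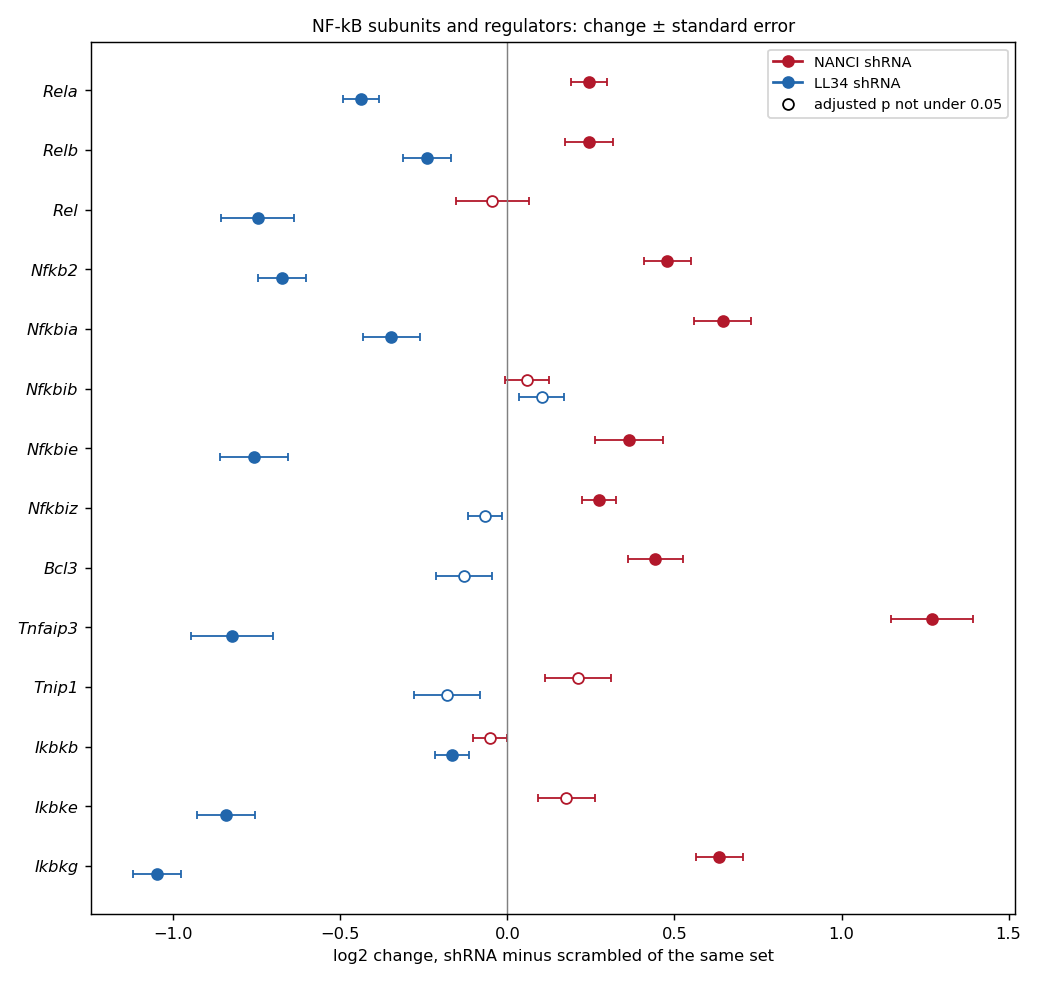
Log2 change of 14 NF-kB subunits and regulators, shRNA minus scrambled of the same set (horizontal axis), for NANCI (red) and LL34 (blue), with the SE as bars and open points where the adjusted p is not under 0.05. Tnfaip3 stands farthest right at 1.27 for NANCI and Ikbkg farthest left at −1.05 for LL34.

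Of 22 cytokine, cytokine receptor and Toll-like receptor genes with their adaptors, 4 rose and 3 fell after NANCI knockdown, and 0 rose and 6 fell with the LL34 shRNA. The shares called, 31.8% and 27.3%, are near those of all named genes (26.8% and 20%), and the medians were 0.064 and −0.069. Csf1, the macrophage growth factor, changed by 0.56 and −0.50, and the interleukin 17 receptor chain Il17rc by 0.47 and −0.30. Receptors for TNF measured −0.61 for Tnfrsf1a and −1.02 for Tnfrsf1b after NANCI knockdown, and Tnfrsf1b also fell with the LL34 shRNA, by 0.74. The receptor gene Il1r1, named after its values were seen, spanned 6.40 to 6.60 in NANCI shRNA cells, below the array medians. Its scrambled cells spanned 7.59 to 7.82. In the LL34 set Il1r1 overlapped, with 7.45 to 7.74 in LL34 shRNA cells and 7.09 to 7.82 in scrambled cells. The pattern receptor genes Tlr2 and Tlr3 fell with the LL34 shRNA by 0.57 and 0.71. The inducers Tnf, Il1a, Il1b and Il6, named after their values were seen, were not called in either comparison, with changes between −0.10 and 0.065. All of these inducers lay below the array median on every array, so the lack of a call says little about them.

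Interferon regulators and RNA or DNA sensors, which act on Cxcl10 and Ccl5, were mixed in direction. Of 16 measured genes, 5 rose and 5 fell after NANCI knockdown, and 3 rose and 5 fell with the LL34 shRNA, with medians of −0.058 and −0.019. That is 62.5% and 50% called, beside 26.8% and 20% of all named genes. Without NANCI scrambled replicate 3 the NANCI counts were 3 and 4, without LL34 shRNA replicate 2 the LL34 counts were 3 and 3, and against all 6 scrambled arrays 5 rose and 2 fell for NANCI. Irf7 and Irf9, interferon-regulated transcription factors, fell by 1.22 and 1.01 after NANCI knockdown and by 0.56 and 0.50 with the LL34 shRNA. Stat2, their signalling partner, measured −0.53 and the kinase gene Tbk1 0.43 after NANCI knockdown. With the LL34 shRNA the RNA sensor gene Ifih1 measured −0.66 and the receptor chain Ifnar2 0.42. Ccl5 was called only for NANCI and Cxcl10 only for LL34, and in each case the difference was called. The part of Irf7 and Irf9 in these results was not tested.

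Of 26 other chemokine genes 2 were called after NANCI knockdown (7.69%, beside 26.8% of all named genes) and 3 with the LL34 shRNA (11.5%, beside 20%), each lower, with medians of 0.027 and −0.032. Most of their probe sets were dim. In a separate alternative, a filter at the median level kept 8 of these genes, and 2 were called lower for NANCI. For LL34 that alternative called 1 higher and 3 lower, where the main fit called 0 higher and 3 lower. Ccl17, a ligand of Ccr4 and the coding gene beside Cx3cl1 on chromosome 8, read 7.24, 7.18 and 7.26 in NANCI shRNA cells, against 7.94, 7.64 and 7.71 in scrambled cells. It read 6.01, 6.23 and 5.99 in LL34 shRNA cells, against 6.92, 7.05 and 6.61 in scrambled cells. Ccl17 was lower in all arrays of both shRNA groups, by −0.54 (SE 0.116, limma adjusted p = 0.00615) and −0.78 (SE 0.116, limma adjusted p = 0.000886). Ccl25 fell by 0.42 after NANCI knockdown, and Cxcl12 and Cxcl13 fell by 0.49 and 0.44 with the LL34 shRNA. Of 22 receptor genes 1 was called after NANCI knockdown (4.55%, beside 26.8% of all named genes), the scavenging receptor gene Ackr3 at −0.43. In 4 of 21 alternatives limma called 0: the replicate block and leaving out NANCI shRNA replicate 1 or 2 or NANCI scrambled replicate 2. With the LL34 shRNA 2 receptor genes were called (9.09%, beside 20% of all named genes), Ccr8 at 0.28 and Ccrl2 at −0.44. No receptor was called higher in 16 of 21 alternatives, among them leaving out NANCI shRNA replicate 2 or 3, NANCI scrambled replicate 1 or 3, LL34 shRNA replicate 2 or 3, or any LL34 scrambled array, and 0 were called in the fit of the LL34 set alone and against all 6 scrambled arrays.

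**Figure D4:**
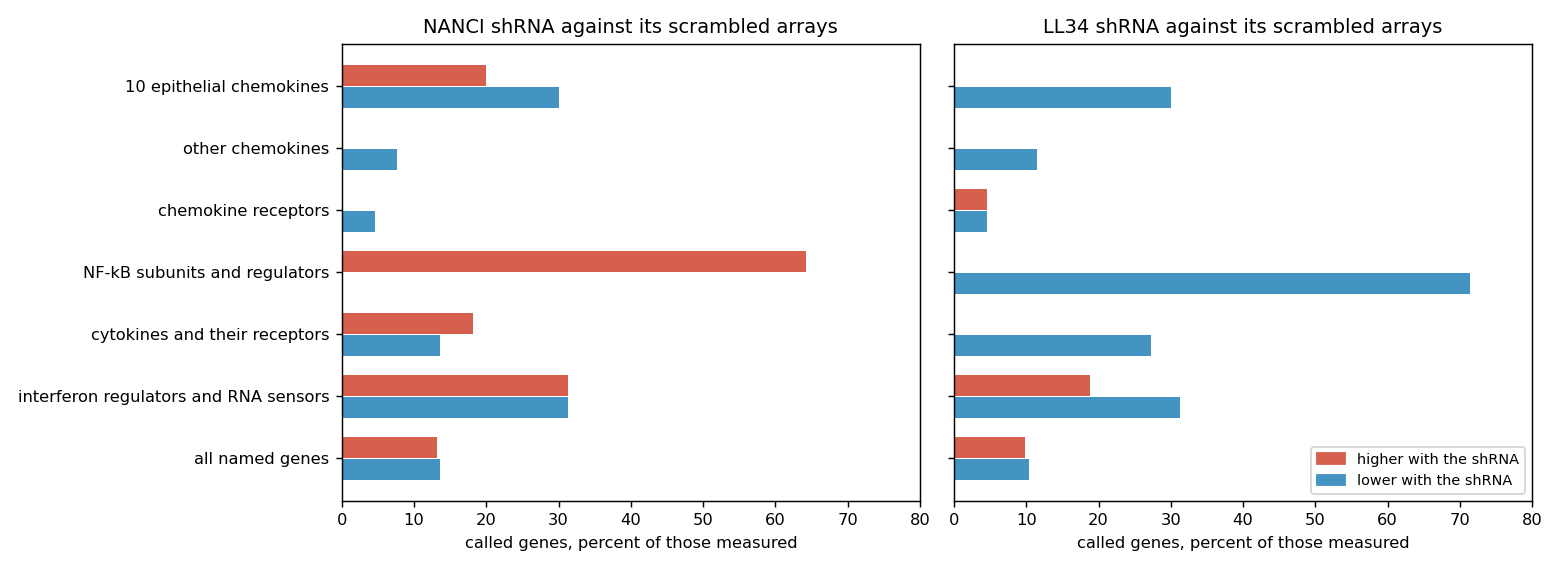
Share of measured genes called higher (red) or lower (blue) with the shRNA (horizontal axis, percent) in the chemokine group, 5 related lists and all named genes, for NANCI (left) and LL34 (right). NF-kB subunits and regulators reach 64.3% higher for NANCI and 71.4% lower for LL34, and all named genes stand at 13.2% higher and 13.6% lower for NANCI.

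Markers of leukocytes, which could themselves make these chemokines, were read beside these results. Of 9 markers 2 rose after NANCI knockdown, Cd14 by 1.73 (SE 0.165, limma adjusted p = 2.42e-05) and Cd68 by 0.88 (SE 0.108, limma adjusted p = 0.000145), and 0 fell. That is 22.2% called, near the 26.8% of all named genes. The summed linear signal of the 9 was 1450 to 1588 in NANCI shRNA cells, against 945 to 979 in scrambled cells. Without Cd14 and Cd68 the other 7 summed to 473 to 498 in NANCI shRNA cells, against 467 to 517 in scrambled cells, so these groups overlapped. Cd14 and Cd68 were left out because they had been called, so that overlap was partly set by the choice. In the LL34 set the 9 markers summed to 767 to 797 in LL34 shRNA cells, against 872 to 951 in scrambled cells. The 7 without Cd14 and Cd68 summed to 348 to 372 there, against 365 to 441, so these groups overlapped. In that set limma called 0 of 9, beside 20% of all named genes, with 2 at an unadjusted p under 0.05. It called 1 lower without NANCI scrambled replicate 2 and 2 lower without LL34 scrambled replicate 3. The defining markers Ptprc, Csf1r, Lyz2, Itgam, Itgax and Adgre1 lay below the array median on 12 of 12 arrays, and log2 signals have no zero level. Ptprc measured −0.07 (limma adjusted p = 0.627) after NANCI knockdown and −0.04 (limma adjusted p = 0.793) with the LL34 shRNA. The part of Cd14 and Cd68 in the Ccl2 and NF-kB results was not tested.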

How the data were processed

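RNA of 12 MLE12 samples was read on Affymetrix arrays from 100 ng of total RNA. Per the submitters' processing notes, the authors used oligo, RMA and limma, and the deposited table holds 1 log2 signal for each probe set and array. Tool versions, their order and the build behind the annotation are not stated in the notes used here. The chemokines and lists were chosen with earlier results of these data known.

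All 12 arrays were fitted with limma 3.58.1 in R 4.3.3, with 4 group means, 8 residual and 2.84 prior degrees of freedom. Contrasts were each shRNA against its own scrambled group and the difference between them, adjusted over 41345 probe sets. The script was tested on simulated data. Of these, 23521 had 1 symbol in the platform annotation (several 1814, none 16010), and 23328 were matched to GRCm38.p6 by Entrez number. The brightest probe set stood for a gene in the lists, which had 148 entries, 142 of them measured. From each list up to 4 called genes per comparison, those with the smallest p, were named, and 3 like genes for each chemokine called with a change of at least 1. Promoters came from RefSeq by symbol (6 of 10 genes). The file gives no detection calls, so a dim probe set may read background, and the number of arrays limits precision.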

Additional observations from a re-analysis of the deposited data

Results flagged for a closer look

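By a test of the difference itself, 6 of 10 chemokine genes were called, beside 24.4% of all named genes. For these 6 the change after NANCI knockdown differed from the change with the LL34 shRNA. NANCI minus LL34, on the log2 scale with limma adjusted p, the difference was 2.62 for Ccl2 (3.72e-06), 0.97 for Cxcl1 (0.0017) and 1.16 for Cxcl10 (0.000212). It was −0.87 for Ccl5 (0.0031), −2.14 for Cxcl15 (0.000985) and −0.68 for Cx3cl1 (0.00162). The shRNAs target different RNAs, and set and target cannot be told apart in these differences.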

How the results depend on the processing

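With the replicate number as a block, 5, 2 and 6 chemokine genes were called after NANCI knockdown, with the LL34 shRNA and for the difference, against 5, 3 and 6 without it. The lost call was Cxcl1 with the LL34 shRNA (limma adjusted p = 0.0812). Deviations of same-numbered arrays correlated at −0.057 to 0.012 in the NANCI set and −0.12 to 0.045 in the LL34 set. Differently numbered arrays gave −0.080 to 0.12 and −0.15 to 0.13. With 3 arrays per group these values cannot settle whether same-numbered arrays share more than a number. In a fit of the 6 arrays of the LL34 set alone Cxcl1 was lost too (limma adjusted p = 0.0714). Leaving out single arrays gave 5 to 6, 2 to 4 and 6 calls. Against all 6 scrambled arrays 4309 probe sets were called for LL34 in place of 6766. Signs turned only in genes that were not called. Against all 6 scrambled arrays Ccl7 (0.13) and Cxcl2 (0.074) turned for NANCI and Cx3cl1 (−0.17) for LL34. Cx3cl1 also turned with quantile normalization (−0.042) and Ccl5 with array weights (0.022), both for LL34. Leaving out single arrays gave −0.19 to 0.017 for Ccl7 and −0.076 to 0.025 for Cxcl2 in the NANCI comparison. It gave −0.11 to 0.050 for Ccl5 and −0.17 to 0.014 for Ccl20 in the LL34 comparison, and −0.023 to 0.20 for the difference in Ccl7. The cause of these turns was not tested. A filter at the median level removed Cxcl1, Cxcl2, Cxcl5 and Ccl20 and left 4, 2 and 5 calls. Array weights stopped before full convergence.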

Other observations

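Of 9 genes that act on chemokine RNA or protein after transcription, 0 rose and 3 fell after NANCI knockdown (33.3% called, near the 26.8% of all named genes), and 2 rose and 2 fell with the LL34 shRNA (44.4%, beside 20%). Over 21 alternatives 1 to 5 fell for NANCI and 1 to 3 for LL34, with 1 for LL34 on leaving out any LL34 shRNA array or LL34 scrambled replicate 1 or 2. Adam10, a protease that sheds Cx3cl1 from the membrane, fell by 0.70 after NANCI knockdown (SE 0.0700, limma adjusted p = 3.45e-05), in the same cells in which Cx3cl1 fell, and measured −0.04 with the LL34 shRNA (limma adjusted p = 0.775). Zfp36l1, a protein that binds AU-rich elements and speeds mRNA decay, fell by 0.65 after NANCI knockdown (limma adjusted p = 3.22e-05) and rose by 0.31 with the LL34 shRNA (limma adjusted p = 0.00773). Its other probe set measured −0.41 (limma adjusted p = 0.0117) and 0.18 (limma adjusted p = 0.309). Hnrnpd, an RNA-binding protein gene, measured −0.28 after NANCI knockdown (limma adjusted p = 0.0196) and −0.01 on its other probe set (limma adjusted p = 0.968). With the LL34 shRNA Zfp36, or tristetraprolin, measured −0.45, Zfp36l2 −0.35 and the stabilising protein gene Elavl1 0.21.

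Other marker lists gave these counts. Of 8 mesenchymal markers only Dcn was called after NANCI knockdown, lower by 0.91 (12.5%, beside 26.8% of all named genes). With the LL34 shRNA limma called 0 of 8, beside 20% (1 at an unadjusted p under 0.05). Of 5 endothelial markers only Tek was called, lower in both comparisons, by 1.05 and 1.26. That is 20% in each, at or near the 26.8% and 20% of all named genes. Of 11 lung epithelial markers 0 rose and 4 fell after NANCI knockdown, and 2 rose and 3 fell with the LL34 shRNA (36.4% and 45.5% called, beside 26.8% and 20% of all named genes). The LL34 counts were 1 and 1 without LL34 shRNA replicate 1 or 3 and in a fit of that set alone, and 2 and 1 without LL34 scrambled replicate 2.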
